A study of Drosophila melanogaster with 10 samples.

Results

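The genes described here encode structural proteins of the insect cuticle. They were chosen by name from the authors' deposited count table: every gene whose name starts with Cpr and a digit, or with Lcp, Ccp84, Twdl, Acp65 or Edg. This gave 121 genes of the 16727 in the table: 70 Cpr, 25 Twdl, 15 Lcp, 7 Ccp84, 3 Edg and 1 Acp65 gene. Membership was set by the names alone.

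Cuticle is made of chitin fibres bound into a matrix of proteins. It is secreted by the epidermis and also lines the foregut, hindgut and tracheae, the air tubes that branch into organs including the larval brain. Most cuticle proteins, including those named Cpr, Lcp, Ccp84 and Acp65, carry the Rebers-Riddiford consensus, a sequence that binds chitin. Lcp1 to Lcp4 were first isolated from the cuticle of the third larval instar, and Acp65Aa is an adult cuticle protein. The Ccp84 genes lie in the Antennapedia complex, the Edg genes were found as genes that respond to the moulting hormone ecdysone, and the Tweedle (Twdl) family lacks the Rebers-Riddiford consensus and is named after a mutant with a changed body shape. Neurons and glia, the main cells of a brain, are not known as sources of cuticle.

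Brains were dissected from Drosophila melanogaster larvae in the wandering phase of the third instar, 25 to a library. One genotype was 12xWT, which has 12 wild-type repeats of the histone genes by label, with 3 libraries of females and 3 of males, and the other was yw, which has 200 by label, with 2 libraries of females and 2 of males. Histone gene repeats hold the genes for the histones that package replicating DNA. The labels give no further alleles or transgenes for either stock. Repeat number and stock go together here, so a difference of either kind cannot be told apart from the other. The labels do not say whether replicates came from separate cultures, so p-values measure the spread between these libraries, which may be partly technical.

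Libraries held between 52.02 and 79.92 M read pairs assigned to genes. The unit of level is CPM, a gene's count for every 1 M counted in that library. The limit that a count of 0 allows, 3 counts, was 0.0375 to 0.0577 CPM across libraries and covers counting error alone. The white gene w, mutant in yw by the stock's name, had 224 to 299 CPM in 12xWT and 0.0890 to 0.175 CPM in yw. Summed over 4 neuronal markers the level was 3207 to 3552 CPM in 12xWT and 3638 to 3777 CPM in yw, so brain markers were present throughout. Sex markers separated less in 12xWT. The male-enriched RNA roX2 had 35.7 to 48.0 CPM in 12xWT males against 7.34 to 15.1 CPM in 12xWT females. In yw it had 65.4 and 67.8 CPM in males against 0.0769 and 2.88 CPM in females. The 7 tested genes of the Y chromosome summed to 19.3 to 22.4 CPM in 12xWT males against 17.6 CPM in 12xWT female replicate 2 and 4.30 and 4.60 CPM in the other 12xWT females. The same genes summed to 0.105 and 0.260 CPM in yw males against 0 and 0.0356 CPM in yw females. The other sex markers examined, Sxl, msl-2 and roX1, separated the labelled 12xWT sexes without overlap, though less than in yw. In 12xWT females Sxl had 534 to 609 CPM, msl-2 69.9 to 84.9 CPM and roX1 585 to 958 CPM. In 12xWT males they had 263 to 355, 120 to 139 and 1949 to 2535 CPM. With the Y chromosome levels and the weaker separation, the sex labels, or the sex chromosomes, of the 12xWT libraries remain in doubt. Female and male name these libraries as labelled, and every test within a sex, between the sexes or of their interaction rests on those labels. Genotype calls lost without the female libraries are given beside the gene.

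Cuticle protein genes were expressed at low levels in these brains. At least 1 count was found for 110 of the 121 genes, and 46 passed the expression filter of edgeR (filterByExpr) and were tested. This is 38% of the cuticle genes, against 66.6% of all genes in the table. The median level of the 46 tested genes was 0.285 CPM per kb of exon, against 9.82 CPM per kb over all tested genes. A mean of 1 CPM or more was reached by 5 genes, 45 lay between 0.1 and 1 CPM, and 60 with counts lay under 0.1 CPM. The 64 genes with counts that were not tested had at most 71 counts over the 10 libraries and at most 13 in a single library.

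Members of each family differed in how many were detected. Of the 70 Cpr genes 27 were tested, of the 25 Twdl genes 10, of the 15 Lcp genes 5, of the 7 Ccp84 genes 2 and of the 3 Edg genes 2. Acp65Aa had single counts in 4 libraries and was not tested. No count was found for Cpr23B, Cpr47Ed, Cpr49Aa, Cpr57A, Cpr65Ax1, Cpr65Ax2, Cpr67Fb, Cpr76Bb, Lcp65Aa, Lcp65Ab1 or Lcp65Ab2. For 6 of these 11 genes, at least 50% of the exon length is shared with another gene: Cpr65Ax1 with Cpr65Ax2, Lcp65Ab1 with Lcp65Ab2, Cpr57A with Obp57d and Cpr67Fb with CR45171. The counting used no option for read pairs that match several places or several genes, so the counts of 0 for these 6 are uncertain.

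Cuticle genes lie in clusters along the chromosomes. Of the 121 genes 92 fell into 17 clusters with neighbours within 20 kb. The cluster from Lcp65Ag3 to Cpr65Az (dm6, chromosome 3L, 6130386 to 6161589), with 18 genes, had 13 genes with counts and 1, Lcp65Af, that was tested. Its genes together had 0.560 to 0.880 CPM in 12xWT and 0.500 to 0.837 CPM in yw, overlapping ranges. The cluster of Tweedle genes from TwdlM to TwdlD (dm6, chromosome 3R, 26619118 to 26641054) had counts for 12 of its 12 genes and 1, TwdlD, that was tested. In the Lcp1 to Lcp4 cluster 4 of 4 genes were tested.

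**Figure D1:**
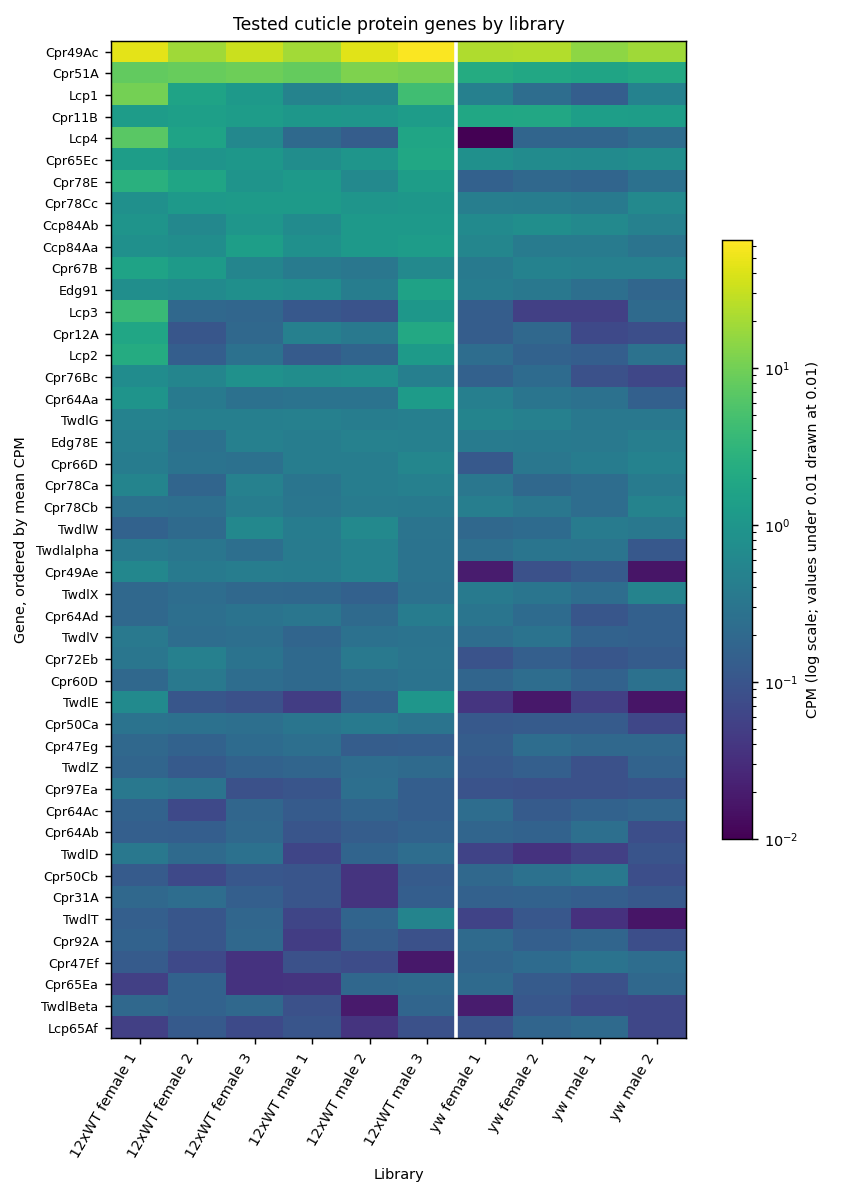
CPM (colour, log scale) of the 46 tested cuticle protein genes (rows, by mean CPM) in 10 libraries (columns; 12xWT left of the white line, yw right of it). Cpr49Ac and Cpr51A lie above the other genes, and Lcp1 to Lcp4, Cpr12A and TwdlE are brightest in 12xWT female 1 or 12xWT male 3.

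Per kb of exon, Cpr49Ac and Cpr51A stood above the rest of the family. Their mean levels over 10 libraries were 14.2 CPM per kb for Cpr49Ac and 9.9 CPM per kb for Cpr51A. The next were Cpr78E at 1.96, Lcp1 at 1.88, Cpr65Ec at 1.73, Cpr11B at 1.69, Cpr78Cc at 1.56 and Lcp4 at 1.48 CPM per kb. Among all 16727 genes Cpr49Ac ranked 4593 and Cpr51A 5553 on this scale.

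Summed over the 121 genes, the level was 102, 48.5 and 63.2 CPM in the 12xWT female libraries and 44.9, 73.8 and 107 CPM in the 12xWT male ones, against 39.0 and 39.7 CPM in the yw female and 29.0 and 33.9 CPM in the yw male libraries. Each 12xWT library lay above each yw library, and 12xWT female 1 and 12xWT male 3 were highest. The means were 73.1 ± 26.2 CPM in 12xWT (SD, n = 6) and 35.4 ± 4.98 CPM in yw (SD, n = 4), a ratio of 2.06. Cpr49Ac alone supplied 37.9% to 59.3% of the sum in a library, and without it the ratio was 2.33. Without 12xWT female 1 and 12xWT male 3 the ratio was 1.63. The sum is a description with no test.

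**Figure D2:**
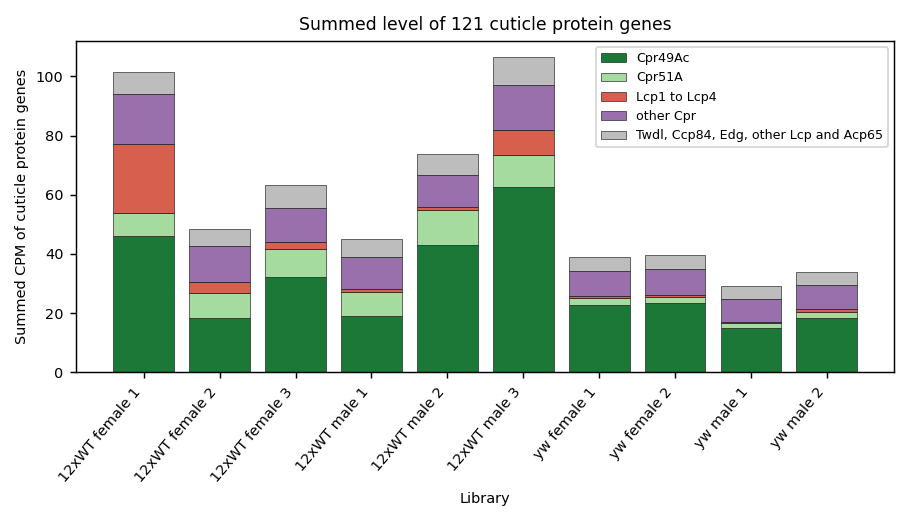
Summed CPM of the 121 cuticle protein genes in each library, stacked by gene group. The 6 12xWT libraries lie between 44.9 and 107 CPM and the 4 yw libraries between 29.0 and 39.7 CPM, and the red Lcp1 to Lcp4 segment is largest in 12xWT female 1.

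The main comparison asked which cuticle genes differ between 12xWT and yw brains, with sex as a covariate. Each fold change sets 12xWT over yw, and positions are given on dm6. Of the 46 tested genes, 14 passed edgeR's quasi-likelihood test at a Benjamini-Hochberg adjusted p under 0.05, or 30.4%, against 33.4% of all 11146 genes tested. In 12xWT 10 were higher, or 21.7% against 17% of all genes, and 4 were lower, or 8.7% against 16.4%. The median log2 fold change was 0.57 over the 46 genes and 0.0 over all genes tested. Without regard to sign the medians were 0.83 and 0.12. The cuticle genes were much lower in counts, so the compared sets are not alike in level. The log2 fold change was positive for 34 of the 46, or 73.9%, against 50.1% of all genes tested. The expression filter can admit a gene through a single genotype, as with Cpr49Ae in 12xWT and Cpr47Ef in yw. With 6 12xWT libraries against 4 of yw, it can admit more low genes that are higher in 12xWT. The part of the filter in the median and the shares of the 46 genes was not tested. The values of all libraries did not overlap between the genotypes for 11 of the 46 genes, or 23.9%, against 24% of all genes. For 10 of these the 12xWT values were above, against a background of 15.1%, and for Cpr47Ef they were below, against a background of 8.89%.

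**Figure D3:**
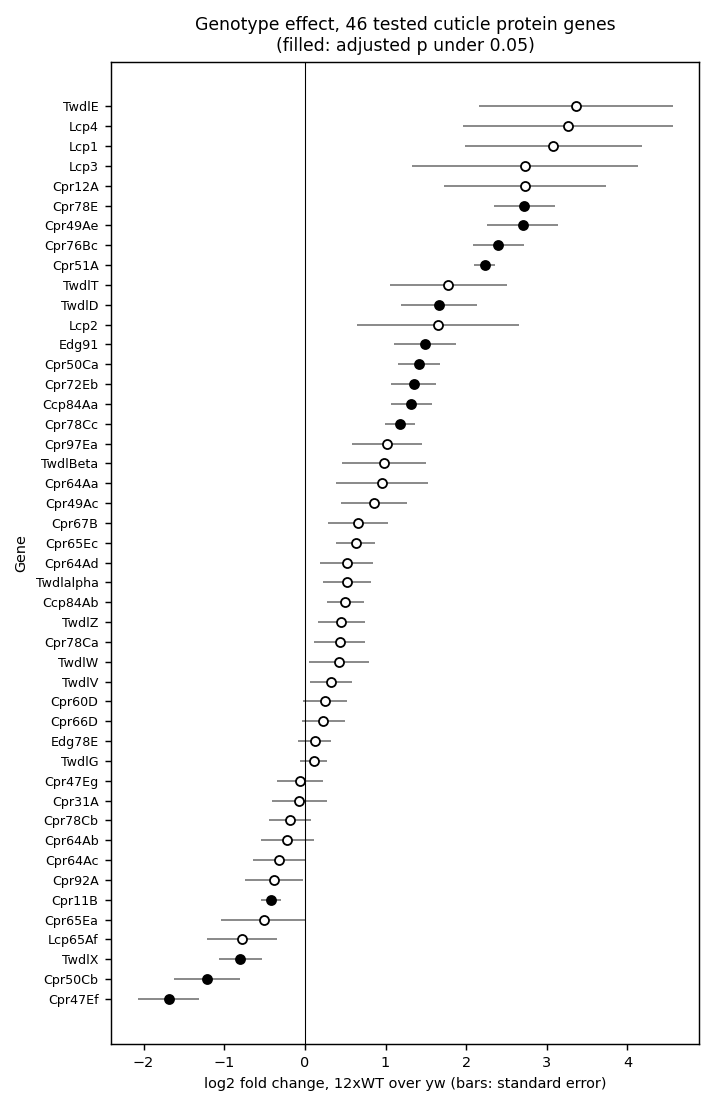
Log2 fold change (12xWT over yw, positive means higher in 12xWT) of the 46 tested cuticle protein genes, with standard errors as bars. Filled points passed the test. The open points at the top, TwdlE, Lcp4, Lcp1, Lcp3 and Cpr12A, have the largest fold changes and wide bars.

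For each family below the background is 17% of all genes higher and 16.4% lower. Among the Cpr genes 7 were higher in 12xWT, 3 were lower and 17 did not pass. The most abundant of the 7 was Cpr51A (FBgn0033942, chromosome 2R, 14512559 to 14515211, minus strand). It had 7.94, 8.49 and 9.45 CPM in the 12xWT female libraries and 8.24, 11.8 and 10.6 CPM in the 12xWT male ones, against 2.25 and 1.91 CPM in the yw female and 1.71 and 2.0 CPM in the yw male libraries. Each 12xWT library held more than each yw library, and replicates of a group lay close together. The means were 9.43 ± 1.53 CPM in 12xWT (SD, n = 6) and 1.97 ± 0.223 CPM in yw (SD, n = 4) (log2 fold change 2.23, SE 0.13, adjusted p = 3.09e-07 in edgeR's quasi-likelihood test, Benjamini-Hochberg adjusted). The call held in each of the alternatives tried, with log2 fold changes of 2.15 to 2.44 and adjusted p-values of 1.92e-53 to 4.35e-04.

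Cpr78E (FBgn0037114, chromosome 3L, 21666452 to 21666980, minus strand) had 2.6, 1.73 and 0.927 CPM in the 12xWT female libraries and 1.1, 0.628 and 1.31 CPM in the 12xWT male ones, against 0.154 and 0.196 CPM in the yw female and 0.175 and 0.26 CPM in the yw male libraries. The groups did not overlap, and within 12xWT the values spread widely, with female 1 highest (log2 fold change 2.72, SE 0.38, adjusted p = 3.36e-04, edgeR). Cpr49Ae (FBgn0033728, chromosome 2R, 12402216 to 12405108, plus strand) had 0.581, 0.366 and 0.41 CPM in the 12xWT female libraries and 0.40, 0.495 and 0.28 CPM in the 12xWT male ones, against 0.0192 and 0.089 CPM in the yw female and 0.122 and 0.0163 CPM in the yw male libraries, low in every yw library (log2 fold change 2.7, SE 0.44, adjusted p = 6.70e-04, edgeR). In the yw libraries Cpr49Ae had 1, 5, 7 and 1 counts, near or under the limit of 3 counts, so the size of its fold change is uncertain. Cpr49Ae lies in the same cluster as the abundant Cpr49Ac, which did not pass. Cpr76Bc (FBgn0036880, chromosome 3L, 19520945 to 19527272, plus strand) had 0.722, 0.541 and 0.856 CPM in the 12xWT female libraries and 0.751, 0.80 and 0.437 CPM in the 12xWT male ones, against 0.154 and 0.214 CPM in the yw female and 0.0874 and 0.065 CPM in the yw male libraries, again without overlap (log2 fold change 2.4, SE 0.32, adjusted p = 1.64e-04, edgeR).

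The other 3 Cpr genes that rose had smaller fold changes. Cpr78Cc (FBgn0037069, chromosome 3L, 21300580 to 21301171, plus strand) averaged 1.05 ± 0.138 CPM in 12xWT (SD, n = 6) and 0.458 ± 0.119 CPM in yw (SD, n = 4) (log2 fold change 1.18, SE 0.19, adjusted p = 7.48e-04, edgeR). Its neighbours Cpr78Ca and Cpr78Cb, within the same cluster, did not pass. Cpr50Ca (FBgn0033867, chromosome 2R, 13769915 to 13787802, plus strand) averaged 0.292 ± 0.0395 CPM in 12xWT (SD, n = 6) and 0.107 ± 0.0282 CPM in yw (SD, n = 4) (log2 fold change 1.42, SE 0.26, adjusted p = 0.00182, edgeR). Cpr72Eb (FBgn0036618, chromosome 3L, 16364899 to 16365707, plus strand) averaged 0.316 ± 0.0828 CPM in 12xWT (SD, n = 6) and 0.118 ± 0.0215 CPM in yw (SD, n = 4) (log2 fold change 1.35, SE 0.28, adjusted p = 0.00364, edgeR). For each of these 3 genes the lowest 12xWT library was above the highest yw library. With no female libraries, an alternative chosen after seeing the data, the call of Cpr72Eb was lost (adjusted p = 0.107).

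**Figure D4:**
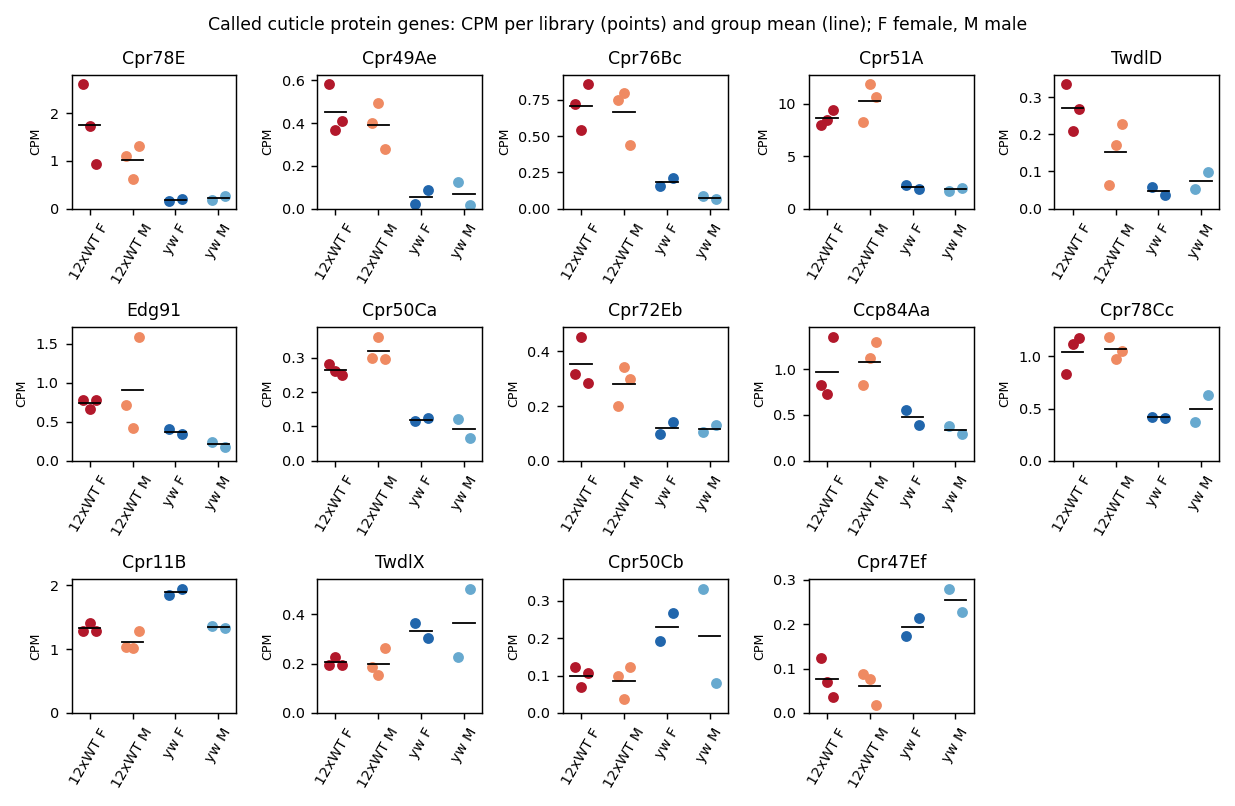
CPM per library (points) and group mean (line) for the 14 cuticle protein genes that passed the genotype test, each panel on its own axis from 0. In the 10 genes of the first 2 rows 12xWT is higher, and in the 4 genes of the last row it is lower.

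Cpr49Ac, the cuticle gene with most counts, did not pass the test. Cpr49Ac (FBgn0033725, chromosome 2R, 12386666 to 12390057, plus strand) had 45.98, 18.4 and 32.3 CPM in the 12xWT female libraries and 19.02, 43.2 and 62.6 CPM in the 12xWT male ones, against 22.9 and 23.6 CPM in the yw female and 14.9 and 18.3 CPM in the yw male libraries. The 2 lowest 12xWT libraries lay within the range of yw, and the other 4 lay above it. Its log2 fold change was 0.86 (SE 0.41, edgeR, adjusted p = 0.149), and it passed in none of the alternatives, with adjusted p-values of 0.0718 to 0.377. Cpr65Ec (FBgn0035737, chromosome 3L, 7093204 to 7093841, plus strand) averaged 1.15 ± 0.393 CPM in 12xWT (SD, n = 6) and 0.729 ± 0.0705 CPM in yw (SD, n = 4), with a log2 fold change of 0.63 (edgeR, adjusted p = 0.0668). It passed when 12xWT male replicate 1 was left out (adjusted p = 0.0244). Cpr30B had 11 counts in all and was not tested, and 54.0% of its summed CPM was in yw male 2.

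Cpr47Ef, Cpr50Cb and Cpr11B fell in 12xWT. Cpr47Ef (FBgn0033603, chromosome 2R, 11266915 to 11272575, minus strand) had 0.123, 0.0698 and 0.0357 CPM in the 12xWT female libraries and 0.0876, 0.0762 and 0.0175 CPM in the 12xWT male ones, against 0.173 and 0.214 CPM in the yw female and 0.28 and 0.228 CPM in the yw male libraries. Every 12xWT library was below every yw library (log2 fold change -1.69, SE 0.38, adjusted p = 0.00606, edgeR). In 12xWT these values were only 1 to 7 counts per library, so the size of the Cpr47Ef change is uncertain. Without female libraries its log2 fold change was -2.0 and its adjusted p 0.0501.

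Cpr50Cb (FBgn0033869, chromosome 2R, 13794777 to 13805231, plus strand) had 0.123, 0.0698 and 0.107 CPM in the 12xWT female libraries and 0.10, 0.0381 and 0.122 CPM in the 12xWT male ones, against 0.192 and 0.267 CPM in the yw female and 0.332 and 0.0813 CPM in the yw male libraries. The groups overlapped through yw male 2 (log2 fold change -1.21, SE 0.41, adjusted p = 0.0422, edgeR). Leaving out any single library other than 12xWT male 3 or yw male 2 lost this call, with adjusted p-values of 0.0557 to 0.199, as did DESeq2 (adjusted p = 0.0747) and the fit without female libraries (adjusted p = 0.285). It stands next to Cpr50Ca, which rose.

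Cpr11B (FBgn0030398, chromosome X, 12553124 to 12554235, plus strand) had 1.28, 1.41 and 1.28 CPM in the 12xWT female libraries and 1.04, 1.01 and 1.28 CPM in the 12xWT male ones, against 1.84 and 1.94 CPM in the yw female and 1.36 and 1.33 CPM in the yw male libraries, highest in yw females and overlapping through 12xWT female 2 (log2 fold change -0.42, SE 0.12, adjusted p = 0.0162, edgeR). The call was lost without yw female 2 (adjusted p = 0.0564) and without female libraries (adjusted p = 0.336). Cpr11B lies inside the span of CG43921, which had 223 ± 51.1 CPM in 12xWT (SD, n = 6) and 388 ± 25.8 CPM in yw (SD, n = 4), a log2 fold change of -0.85 (SE 0.08, edgeR, adjusted p = 6.27e-05). The counting used no strand option, and the part of reads from CG43921 in the Cpr11B counts was not tested.

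Lcp1, Lcp3 and Lcp4, genes of the larval cuticle, were among those with the largest fold changes, with wide errors. Lcp1 (FBgn0002531, chromosome 2R, 8430115 to 8431243, minus strand) had 10.3, 1.6 and 1.16 CPM in the 12xWT female libraries and 0.50, 0.59 and 4.46 CPM in the 12xWT male ones, against 0.461 and 0.232 CPM in the yw female and 0.14 and 0.488 CPM in the yw male libraries. The lowest 12xWT library was just above the highest yw library, and 51.8% of the summed CPM was in 12xWT female 1. Its log2 fold change was 3.08 (SE 1.1) and did not pass in edgeR (adjusted p = 0.0656). DESeq2 called it (adjusted p = 0.00283), as did edgeR without 12xWT female 1 and 12xWT male 3, at a log2 fold change of 1.41 (adjusted p = 0.0252).

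Lcp4 (FBgn0002535, chromosome 2R, 8437647 to 8438495, plus strand) had 6.85, 1.6 and 0.606 CPM in the 12xWT female libraries and 0.20, 0.133 and 1.73 CPM in the 12xWT male ones, against 0 and 0.178 CPM in the yw female and 0.175 and 0.228 CPM in the yw male libraries, and the groups overlapped (log2 fold change 3.26, SE 1.3, adjusted p = 0.0957, edgeR). Lcp3 (FBgn0002534, chromosome 2R, 8435310 to 8436095, plus strand) had 3.84, 0.192 and 0.178 CPM in the 12xWT female libraries and 0.113, 0.0952 and 1.05 CPM in the 12xWT male ones, against 0.135 and 0.0534 CPM in the yw female and 0.0524 and 0.211 CPM in the yw male libraries, with 64.9% of its summed CPM in 12xWT female 1 (log2 fold change 2.73, SE 1.4, adjusted p = 0.173, edgeR). Lcp2, named here as the remaining gene of the cluster, had a log2 fold change of 1.65 (edgeR, adjusted p = 0.248). Together Lcp1 to Lcp4 had 23.3 CPM in 12xWT female 1, 8.43 CPM in 12xWT male 3 and 0.938 to 3.54 CPM in the other 12xWT libraries, against 0.507 to 1.20 CPM in yw. Of the 15 Lcp genes, 5 were tested and 0 passed in either direction in edgeR with robust estimation. Without robust estimation edgeR called Lcp1 (adjusted p = 0.0266) and Lcp4 (adjusted p = 0.0453) higher, and DESeq2 also called both (adjusted p = 0.0245 for Lcp4) and gave no adjusted p for Lcp3.

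Of the 2 tested Ccp84 genes 1 rose. Ccp84Aa (FBgn0004783, chromosome 3R, 6704084 to 6704903, plus strand) had 0.827, 0.733 and 1.35 CPM in the 12xWT female libraries and 0.826, 1.12 and 1.29 CPM in the 12xWT male ones, against 0.557 and 0.392 CPM in the yw female and 0.385 and 0.293 CPM in the yw male libraries, with no overlap (log2 fold change 1.32, SE 0.25, adjusted p = 0.00228, edgeR). Its neighbour Ccp84Ab did not pass, at a log2 fold change of 0.5 (adjusted p = 0.113). Edg91 (FBgn0004554, chromosome 3R, 17610856 to 17611511, minus strand), a glycine-rich protein gene, had 0.775, 0.663 and 0.784 CPM in the 12xWT female libraries and 0.713, 0.419 and 1.59 CPM in the 12xWT male ones, against 0.404 and 0.338 CPM in the yw female and 0.245 and 0.179 CPM in the yw male libraries. The lowest 12xWT value, in male 2, was just above the highest yw value (log2 fold change 1.49, SE 0.38, adjusted p = 0.0116, edgeR). Its call was lost without female libraries (adjusted p = 0.0846). Edg78E, the other tested Edg gene, did not pass.

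Of the 10 tested Tweedle genes 1 rose, 1 fell and 8 did not pass. TwdlD (FBgn0039444, chromosome 3R, 26640025 to 26641054, plus strand), the gene of the mutant after which the family is named, had 0.335, 0.209 and 0.267 CPM in the 12xWT female libraries and 0.0626, 0.171 and 0.227 CPM in the 12xWT male ones, against 0.0577 and 0.0356 CPM in the yw female and 0.0524 and 0.0975 CPM in the yw male libraries. In the yw libraries TwdlD had 3, 2, 3 and 6 counts, near the limit of 3 counts. The groups overlapped through 12xWT male 1 (log2 fold change 1.66, SE 0.47, adjusted p = 0.0191, edgeR). Its call was lost without yw female 1 (adjusted p = 0.0591), without yw female 2 (adjusted p = 0.0727), without 12xWT female 1 and 12xWT male 3 together (adjusted p = 0.0689) and without female libraries (adjusted p = 0.407). TwdlX (FBgn0052571, chromosome X, 16731091 to 16732630, plus strand) had 0.194, 0.227 and 0.196 CPM in the 12xWT female libraries and 0.188, 0.152 and 0.262 CPM in the 12xWT male ones, against 0.365 and 0.303 CPM in the yw female and 0.227 and 0.504 CPM in the yw male libraries, again overlapping (log2 fold change -0.8, SE 0.27, adjusted p = 0.0362, edgeR). It passed when 12xWT female 2, 12xWT male 3 or yw male 1 was left out, and was lost without any of the other 7 libraries, with adjusted p-values of 0.0529 to 0.184. DESeq2 did not call it (adjusted p = 0.0854), nor did edgeR without female libraries (adjusted p = 0.22). It lies inside the span of CG9634, which did not differ detectably (log2 fold change 0.04, SE 0.04, edgeR, adjusted p = 0.523). TwdlR had 7 counts in all, 4 of them in 12xWT female 3, and was not tested.

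A few further cuticle genes among the 121 are described here, chosen after their values were seen. TwdlE had 0.669, 0.105 and 0.0891 CPM in the 12xWT female libraries and 0.050, 0.152 and 1.01 CPM in the 12xWT male ones, against 0.0384 and 0.0178 CPM in the yw female and 0.0524 and 0.0163 CPM in the yw male libraries, and did not pass (log2 fold change 3.36, SE 1.2, adjusted p = 0.066, edgeR). As 71.9% of its exon length is shared with lectin-28C, its level is uncertain. Cpr12A had 1.83, 0.105 and 0.196 CPM in the 12xWT female libraries and 0.463, 0.343 and 2.03 CPM in the 12xWT male ones, against 0.135 and 0.196 CPM in the yw female and 0.0699 and 0.0813 CPM in the yw male libraries, and did not pass either (log2 fold change 2.73, SE 1.0, adjusted p = 0.0792, edgeR). DESeq2 called both as higher in 12xWT. Both were highest in 12xWT male 3 and next highest in 12xWT female 1. Among the untested genes the counts did not overlap for Cpr47Ee, with 4 to 7 counts per 12xWT library and 0 or 1 per yw library, and for Ccp84Ad, with 6 to 12 counts per 12xWT library and 0 to 3 per yw library. Cpr35B ran the other way, with 0 or 1 count per 12xWT library and 2 or 3 per yw library. With no expression filter 4 further genes passed as higher in 12xWT in edgeR: Cpr47Ee (adjusted p = 0.0015), Ccp84Ad (adjusted p = 0.00544), Cpr11A (adjusted p = 0.0399) and Cpr47Eb (adjusted p = 0.043). The shares of all untested genes without overlap, and of all genes called without the filter, are not given here. These genes therefore stand as single values and show nothing about cuticle genes as a family.

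Within females, 7 of the 46 genes were higher in 12xWT and 0 lower, or 15.2%, against 12.6% of all genes in either direction, 7.04% higher and 5.57% lower. The 7 were Cpr49Ae, Cpr51A, Cpr72Eb, Cpr76Bc, Cpr78Cc, Cpr78E and TwdlD. Within males 8 were higher and 1, Cpr47Ef, was lower, or 19.6%, against 21% of all genes in either direction, 11.1% higher and 9.91% lower. The 8 were Ccp84Aa, Cpr49Ae, Cpr50Ca, Cpr51A, Cpr76Bc, Cpr78Cc, Cpr78E and Edg91. With 2 yw libraries per sex these counts depended on single libraries: 2 genes were called in females without yw female 1 and 4 without yw female 2, and in males 5 without yw male 1, 3 without yw male 2 and 13 without 12xWT male 1. The shares of all genes called in these refits are not given here. The call of Cpr47Ef in males was lost without 12xWT male 3, yw male 1 or yw male 2. The difference of the genotype effect between the sexes passed for 0 of 46 genes in edgeR, against 0% of all genes. At an unadjusted p under 0.05 there were 2 (Cpr64Ad and Cpr67B), a count that 46 tests can give by chance. A gene called in one sex and not in the other is therefore not shown to differ between them.

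By the labelled sex, which is in doubt for 12xWT, no cuticle gene passed the threshold. The sex effect (male over female, with genotype as covariate) passed for 0 of 46 genes in edgeR and 0 in DESeq2, against 1.68% of all genes (0.637% higher and 1.04% lower), with 3 at an unadjusted p under 0.05. These were Cpr11B (log2 fold change -0.36, adjusted p = 0.21), Cpr66D (0.72, adjusted p = 0.303) and Cpr67B (-0.82, adjusted p = 0.441). CG43921, around Cpr11B, had a sex log2 fold change of -0.43. Cpr67B had 0.388, 0.324 and 0.63 CPM in the 12xWT male libraries against 1.6, 1.2 and 0.553 CPM in the 12xWT female ones, while yw males held 0.455 and 0.455 CPM against 0.365 and 0.498 CPM in yw females, so that 12xWT female 1 and 12xWT female 2 stood highest. Within 12xWT 0 genes passed, against 0.0538% of all genes (0.0179% higher and 0.0359% lower), with 2 at an unadjusted p under 0.05. Within yw 0 passed, against 0.807% (0.44% higher and 0.368% lower), with 4 at an unadjusted p under 0.05. Such unadjusted counts among 46 tests can arise by chance. Their share over all genes was not computed, so they show no sex effect. The counts of 0 held in every alternative run for these tests.

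Relative to their mean, CPM values of the tested cuticle genes varied more between libraries of the same group than those of all tested genes. The median coefficient of variation between replicates was 26.7% over the tested cuticle genes in 12xWT females, 35.3% in 12xWT males, 22.4% in yw females and 22.7% in yw males, against 4.10% to 6.01% over all tested genes. The cuticle genes were also much lower in counts, so the compared sets are not alike in level. The part of counting error in this spread was not tested, and the difference therefore shows no trait of cuticle genes. The highest value among the 10 libraries was in 12xWT female 1 for 11 of the 46 genes and in 12xWT male 3 for 10. Together these are 45.7% of the tested cuticle genes, against 28.6% of all tested genes.

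Marker genes of other tissues were also compared. Summed over 6 tracheal markers (trh, btl, serp, verm, Gasp and pio) the level was 154, 101 and 117 CPM in the 12xWT female libraries and 106, 133 and 239.8 CPM in the 12xWT male ones, against 87.8 and 101 CPM in the yw female and 91.8 and 72.1 CPM in the yw male libraries. It was highest in 12xWT male 3 and 12xWT female 1, the libraries with the highest summed cuticle level. Of the 6, btl, the tracheal fibroblast growth factor receptor, and trh, the tracheal selector gene, passed as higher in 12xWT, at log2 fold changes of 0.55 and 0.18 (edgeR, adjusted p = 0.00899 and 0.0488), and none was at 0 in every library. Against these marker counts stands the background of 17% of all genes called higher and 16.4% called lower. Summed over 6 fat body markers, among them the larval serum proteins, the level was 39.4 to 508 CPM in 12xWT and 7.84 to 201 CPM in yw, with 0 of 6 called in edgeR. It was highest in 12xWT male 3 (508 CPM), then 12xWT male 1 (356 CPM) and 12xWT female 1 (289 CPM). The 7 ring gland markers found summed to 140 to 330 CPM in 12xWT and 47.1 to 134 CPM in yw, with 5 called higher and 0 lower. Ring gland markers were highest in 12xWT male 1 (330 CPM) and 12xWT female 2 (278 CPM), with 238 CPM in 12xWT female 1 and 222 CPM in 12xWT male 3. For hemocytes the sum of 5 markers was 111 to 148 CPM in 12xWT and 87.4 to 115.2 CPM in yw, with 2 called higher and 0 lower. The hemocyte sum, like the tracheal one, was highest in 12xWT female 1 (148 CPM) and 12xWT male 3 (143 CPM). Its markers did not share this order. In 12xWT male 3 Ppn was highest (54.3 CPM), while NimC1 was the lowest of the 12xWT libraries (0.665 CPM). Hml had 24.2 CPM in 12xWT female 1 and 7.8 CPM in 12xWT male 3, and eater was highest in 12xWT male 1 (4.12 CPM). The 6 muscle markers summed to 47.3 to 85.8 CPM in 12xWT and 55.5 to 57.1 CPM in yw, with 1 called higher and 0 lower. Their sum was also highest in 12xWT female 1 (85.8 CPM) and 12xWT male 3 (64.7 CPM), followed by 12xWT male 1 (62.1 CPM). The 6 salivary gland markers summed to 2.34 to 14.8 CPM in 12xWT, highest in male 1, and 2.01 to 10.03 CPM in yw, with 0 called. Of the 10 imaginal disc markers, which summed to 237 to 249 CPM in 12xWT and 246 to 276 CPM in yw, 1 was called higher and 3 lower. Of the 5 glial markers, which summed to 538 to 598 CPM in 12xWT and 581 to 621 CPM in yw, 1 was called higher and 3 lower. Of the 4 neuronal markers 0 were called higher and 2 lower. The 4 eye disc markers summed to 58.3 to 88.2 CPM in 12xWT and 62.9 to 74.5 CPM in yw, with 0 called. The part of these tissues in the levels of the cuticle genes was not tested. In bulk libraries fewer cells of a type and less RNA per cell cannot be told apart. Leaving out 12xWT female 1 and 12xWT male 3 together, an alternative chosen after seeing the data, gave 10 genes higher and 2 lower, and 11 of the 14 calls were kept. The share of all genes called in that refit is not given here.

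**Figure D5:**
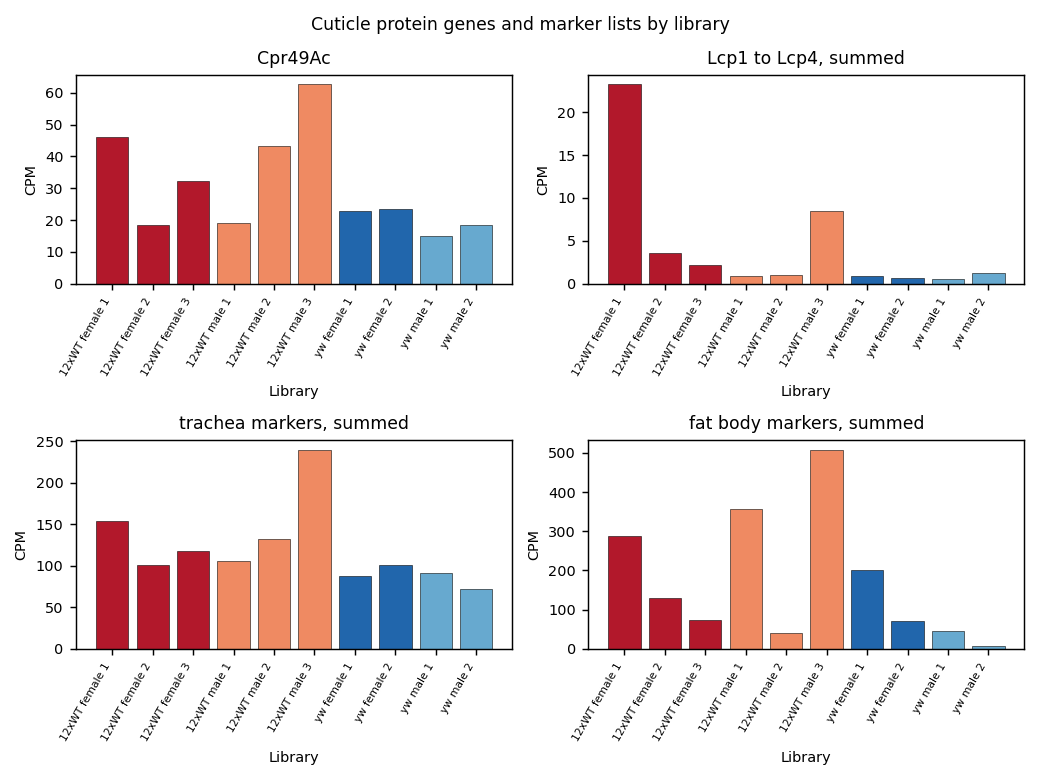
CPM per library of Cpr49Ac, the sum of Lcp1 to Lcp4, the sum of 6 tracheal markers and the sum of 6 fat body markers (12xWT in red and orange, yw in blue). 12xWT male 3 is highest for Cpr49Ac and for both marker sums, and 12xWT female 1 is highest for Lcp1 to Lcp4.

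Other genes that build, tan and shape cuticle were examined from a written list. Of 101 names 86 were found and 77 tested. With a median log2 fold change of 0.32 for genotype, 14 were higher and 6 lower, or 26%, near the 33.4% of all genes. Of all genes 17% were higher and 16.4% lower. The adjusted p-values of these 20 calls reached up to 0.0396 in edgeR, and the changes below are log2 fold changes. Among the chitin enzymes, the chitin deacetylase gene ChLD3 rose by 1.89 on the log2 scale (edgeR, adjusted p = 2.60e-07), to 4.92 ± 0.668 CPM in 12xWT (SD, n = 6) against 1.31 ± 0.0632 CPM in yw (SD, n = 4). The deacetylase gene Cda5 and mmy, which makes the activated sugar for chitin, rose by 0.29 and 0.20. The chitinase gene Cht7 and the chitinase-like Idgf1 and Idgf4 rose by 0.71, 0.90 and 0.64. The chitin-binding obst-A rose by 1.24 (adjusted p = 0.0152), while Mur2B fell by 0.33.

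Of 16 tested genes for tanning and pigment 4 rose and 1 fell. Those that rose were b, which makes the beta-alanine used in tanning (log2 fold change 2.58), y, mutant in yw by the stock's name (2.45), yellow-f (1.95) and laccase2, a phenoloxidase (0.78). Ddc, the dopa decarboxylase, fell by 0.67 (edgeR, adjusted p = 9.71e-05). Of 11 tested genes of the apical matrix list pot rose by 1.73 and tyn fell by 0.74, both zona pellucida domain proteins, and trn, a leucine-rich repeat protein, fell by 0.09. Resilin, an elastic cuticle protein, rose by 1.20 and the pupal cuticle gene Pcp fell by 0.72. Of 18 tested regulators known from epidermis the nuclear receptor gene Hr38 rose by 0.61 and the nuclear receptor gene ftz-f1 fell by 0.25. For sex 0 of the 77 genes were higher in males and 1, Mur2B, was lower, at a log2 fold change of -0.37 (edgeR, adjusted p = 0.0135).

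In the authors' deposited table, which gives yw over 12xWT so that a negative value means higher in 12xWT, 32 of the cuticle genes were among 10653 genes. The authors' deposited table has 14 of them at an adjusted p under 0.05, with 14 higher in 12xWT and 0 lower. Of these 9 are also called here. The share of all 10653 genes that passes there was not computed, so these counts have no background. Cpr47Ef, Cpr50Cb and TwdlD, called here, are not among the 32. The 0 lower therefore says nothing of Cpr47Ef and Cpr50Cb, which were lower here. In the authors' deposited table Cpr51A has a log2 fold change of -2.24 and an adjusted p of 5.76e-38. Lcp1, Lcp3, Lcp4, Cpr12A and Cpr65Ec pass in the authors' deposited table and not in the edgeR fit here, while Cpr11B (adjusted p = 0.0658) and TwdlX (adjusted p = 0.0841) do not pass in the authors' deposited table. Both analyses use the same 10 libraries.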

How the data were processed

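RNA of 25 larval brains per library was extracted in Trizol and polyA-selected, and sequencing libraries were made with a stranded mRNA kit, per the labels' protocols. Genotype, sex and replicate number came from the sample titles. Raw counts were deposited, made by the authors on dm6 with featureCounts 2.0.1 in paired mode over exons, per the file headers. The recorded command sets neither strand nor multi-mapping. The submitters' processing notes also name STAR 2.7.7a, SAMtools 1.9 and DESeq2 1.34.0. Exon lengths per gene are given in the same table. The authors' deposited comparison table gives yw over 12xWT: a mean normalized count (a signal value), a log2 fold change and an adjusted p-value per gene, per the file headers. All sample columns were mapped, and 0 rows named anything other than a gene. FlyBase identifiers were matched by symbol for 120 of 121 genes; TwdlBeta had no match. No nucleotide or protein sequence was used here.

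The fits used edgeR 4.0.16 under R 4.3.3, with DESeq2 1.42.0 as an alternative. Tables and plots used Python 3.11.15 (matplotlib 3.10.9, numpy 2.4.6, pandas 2.3.3). Over all 4 groups filterByExpr left 11146 genes. TMM factors were 0.985 to 1.02 and the common biological coefficient of variation 8.76%. The genotype effect (12xWT over yw) and the sex effect (male over female) came from a robust quasi-likelihood model with both terms, and the effects within a sex or a genotype and the interaction from a model with 4 group means. P-values were adjusted by Benjamini-Hochberg over all tested genes, with a threshold of 0.05. Standard errors are the absolute log2 fold change over the square root of F. CPM uses library totals without TMM. The fit was tested on simulated data before use.

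Replicate pairs differed by more than sampling noise (chi-square per degree of freedom 9.54 to 29.4), so no pair was treated as a single library; this does not show that they came from separate cultures. Genes named are those passing the genotype test, the 10 with the highest mean CPM per kb, those passing any other test, and up to 5 with over 50% of their summed CPM in 1 library; genes added after their values were seen are said to be so. Alternatives were other scalings, filters, dispersion estimation, DESeq2, a 2-fold threshold, a replicate block and leaving out each library. The genes and gene lists were chosen with earlier results of these data known.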

Additional observations from a re-analysis of the deposited data

Results flagged for a closer look

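In 6 of 44 groups examined, a single library stood far from the others of its genotype, where chance alone gives about 1 in 20. The genes Cpr30B, Lcp3, Lcp4 and TwdlR, which hold 4 of the 6, were named because over 50% of their summed CPM is in 1 library, so the 6 cannot be read against that share. In 12xWT, female 1 was highest for Lcp4, at 6.85 CPM against 1.73 CPM in the next library, and for Lcp3, at 3.84 CPM against 1.05 CPM. In both genes the next library was 12xWT male 3. That library was highest for Edg91, at 1.59 CPM against 0.784 CPM in the next. TwdlR, an untested gene with 7 counts in all, was highest in 12xWT female 3, at 0.0713 CPM against 0.0190 CPM. In yw, male 2 was highest for the untested Cpr30B, at 0.0975 CPM against 0 in the other yw libraries, and lowest for Cpr50Ca, at 0.0650 CPM against 0.115 CPM in the next.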

How the results depend on the processing

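Of 370 log2 fold changes of 19 named genes under the alternatives, 330 kept their direction and their side of the threshold, 34 lost the call, 6 gained it and 0 reversed. The genotype count of 14 was 18 with no expression filter or no robust estimation, 16 with DESeq2, 12 at a 2-fold threshold, and 14 with RLE scaling or library size alone. The share of all genes called under each alternative is not given here, so a changed count shows nothing particular to cuticle genes. It was 5 with a minimum count of 50 (4 higher, 1 lower), where fewer genes were tested, and 7 with no female libraries (7 higher, 0 lower), where fewer samples were used. The 4 lower genes became 2 with DESeq2, 2 at a 2-fold threshold and 2 without 12xWT female 1 and 12xWT male 3 together; the cause was not tested. With the replicate block the count was 12 (9 higher, 3 lower), and 12 of the 14 calls were kept, with TwdlD and TwdlX lost. Same-numbered libraries showed little joint deviation: over 13 pairs correlations ran from -0.17 to 0.10. Weak correlations cannot exclude a pairing by number. Between the sexes of 12xWT some differently numbered libraries correlated more: female 1 with male 3 at 0.42, female 3 with male 2 at 0.28 and female 2 with male 1 at 0.24. The other differently numbered pairs there ran from -0.32 to -0.10. What such libraries share was not tested.

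Leaving out each library in turn gave 10 to 15 called genes (9 to 13 higher, 1 to 4 lower), 2 to 7 in females (2 to 7 higher), and 3 to 13 in males (3 to 12 higher, 0 to 1 lower). These ranges too come without the shares of all genes. With a minimum count of 50, 3 genes were called in females (3 higher) and 4 in males (4 higher, 0 lower), and DESeq2 called 0 lower in males. The log2 ratio of summed CPM, 1.05, was 0.91 to 1.15 over left-out libraries and 0.70 to 1.26 over the other settings. Most tested genes lay under 1 CPM; how far depth and how far the spread between libraries limits the calls was not tested.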
